A study of Mus musculus with 22 samples.

Results

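One day of celastrol was compared with its vehicle in the hypothalamus of lean male C57BL/6J mice. Celastrol is a triterpenoid from the root of the thunder god vine, and the vehicle is dimethyl sulfoxide (DMSO). The samples were taken by their titles: 3 arrays of mice given celastrol for 1 day and 4 arrays of mice given DMSO for 1 day, which makes 7 of the 22 arrays of the series. All mice were 8 weeks old, had been on normal chow for 2 weeks, and were injected into the peritoneal cavity. The labels of both groups give 25 µl per day for DMSO. They give a volume of 100 µl for celastrol at 1 and 4 days but print the dose, 250 µg per kg, only beside 6 h, so the dose at 1 day is not known from them. Whether the injected volume differed between the groups is also not clear, and such a difference could not be told apart from celastrol. The other 15 arrays are the same 2 treatments after 6 h (4 and 4 arrays) and 4 days (3 celastrol and 4 DMSO arrays), with no array shared between times. Every probe set with exactly 1 gene symbol was used, dim ones included, which gave 20228 probe sets for 18704 genes. Values are log2 intensities, and a change is the celastrol mean minus the DMSO mean on that scale, so a change of 1 would be a doubling.

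The hypothalamus sets appetite, body temperature and the stress axis, and it reads signals from blood such as leptin, cytokines and glucocorticoids. Leptin and cytokines of the interleukin-6 family act through receptors that activate JAK kinases and the transcription factor STAT3, while interleukin-1 and tumour necrosis factor act largely through NF-kB. Adrenal glucocorticoids act through a nuclear receptor that switches on its own set of genes and restrains NF-kB. Celastrol is known for lowering food intake in obese mice and, in cells, for acting on the heat shock response, the proteasome and NF-kB.

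The labelled tissue was checked against its neuropeptides. Pmch and Hcrt, made by neurons of the lateral hypothalamus, lay at the 99.2 and 99.3 percentile of the DMSO level, Oxt (oxytocin) at 96.8 and Avp (vasopressin) at 92.4. Some arrays stood apart. DMSO replicate 1 and celastrol replicate 2 had the lowest mean correlation with the others of their group (0.9951 and 0.9945, over 0.994 to 0.998 in the series), and results are given without them where this matters. Celastrol replicate 1 was almost as low (0.9952), and it stays in when those 2 arrays are left out. DMSO replicate 3 was high in genes of neighbouring tissue: Gh, the growth hormone of the pituitary, read 7.82, 7.93, 10.98 and 8.06 in the 4 DMSO arrays and 8.11, 7.84 and 7.64 with celastrol, and Fmod, a matrix protein of the meninges, read 8.61, 8.70, 10.07 and 8.64 against 8.76, 8.49 and 8.56. For these genes 1 DMSO array lay far above the other 6. In bulk tissue, fewer cells of a type and less RNA per cell cannot be told apart. The labels name biological replicates but no cage, litter or dissection batch, so p-values measure only the spread between these samples.

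At 1 day, 1 probe set passed an adjusted p under 0.05 (limma, Benjamini-Hochberg over all 20228), that of Ch25h, which was higher with celastrol, and 0 were lower. This is 0.00494% of those tested. At an unadjusted p under 0.05 there were 1126 (5.57%), against 1011.4 expected by chance alone, and they split into 476 higher (2.35%) and 650 lower (3.21%). Single arrays moved some of these counts by over 1.5 times: they were 1107 higher and 991 lower without celastrol replicate 1, 302 and 492 without celastrol replicate 2, and 719 and 518 without DMSO replicate 1. The 3 celastrol arrays lay outside the range of the 4 DMSO arrays for 1074 probe sets (5.31%), above it for 428 (2.12%) and below it for 646 (3.19%). Means were higher for 10091 probe sets (49.9%) and lower for 10137 (50.1%). These shares are the background for each group of genes below, since apart from Ch25h no gene named here passed the test over all probe sets. The plot of change against level shows a few genes well above the rest. The lowest point is Gh (-0.84, SE 0.83, adjusted p = 0.915, limma), which rests on DMSO replicate 3.

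**Figure D1:**
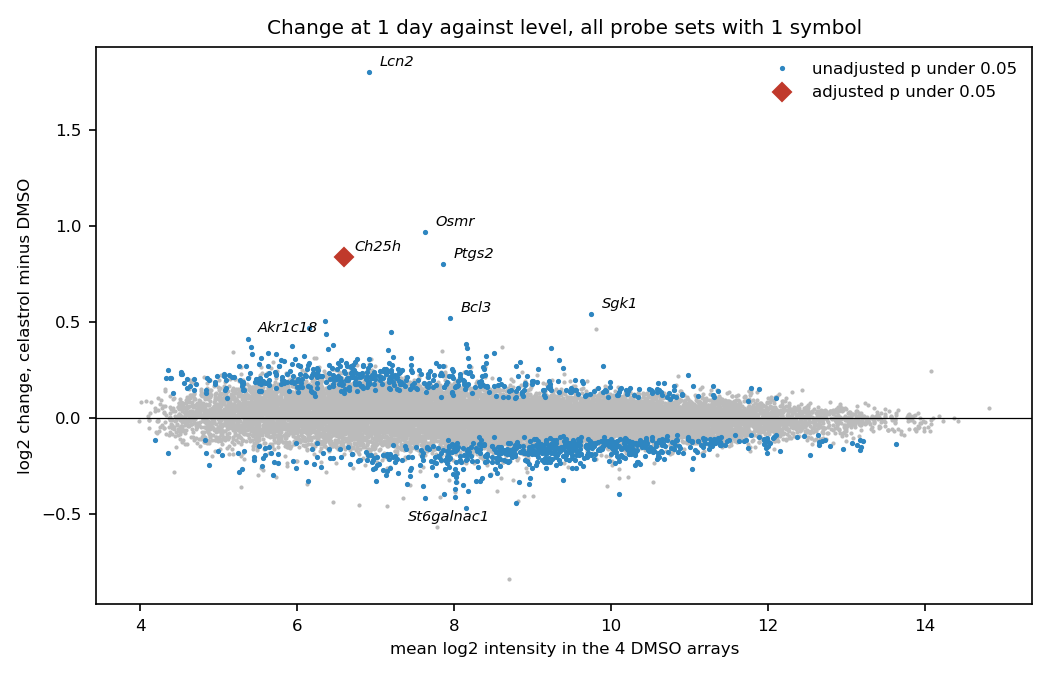
Each point is 1 of 20228 probe sets, with the mean log2 intensity of the 4 DMSO arrays on the x axis and the log2 change with 1 day of celastrol on the y axis; blue marks an unadjusted and red an adjusted p under 0.05 (limma). Ch25h is the only red point, and Lcn2, Osmr, Ptgs2, Bcl3 and Sgk1 lie above the cloud.

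Ch25h (probe set 10467136) encodes cholesterol 25-hydroxylase, which macrophages and other cells switch on in inflammation to make the oxysterol 25-hydroxycholesterol. It read 6.69, 6.54, 6.50 and 6.67 in the DMSO arrays and 7.42, 7.37 and 7.52 in the celastrol arrays. The groups did not overlap, and the gap between the lowest celastrol and the highest DMSO array was 0.68. With celastrol Ch25h rose by 0.84 (SE 0.12, n = 3 and 4), which is 1.79-fold. The 95% interval of the log2 change was 0.59 to 1.08, and the adjusted p was 0.0129 (limma). An exact permutation of the 7 arrays gave a two-sided p = 0.0286, the smallest that 3 against 4 arrays allow. It adds no evidence beyond the lack of overlap, which 1074 probe sets (5.31%) shared. Its probe set was below the array median in all 7 arrays (DMSO level at the 16.8 percentile) and nothing in the table shows it above background, which leaves the fold approximate. The adjusted p went above 0.05 without DMSO replicate 2 (0.0785) or 3 (0.0869), without celastrol replicate 1 (0.0526), 2 (0.0657) or 3 (0.115), and without the 2 least typical arrays (0.138), while the change stayed between 0.80 and 0.90 in these. At 6 h Ch25h had a change of 0.24 (SE 0.11, adjusted p = 0.998, limma), and at 4 days it rose by 0.95 (SE 0.12, adjusted p = 0.00186, limma), 1 of 2 probe sets called then (0.00989%).

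Among the interleukin-6 family and its receptors, Osmr had the largest change. Osmr (probe set 10427471), the receptor subunit for oncostatin M, read 7.66, 7.43, 7.65 and 7.78 with DMSO and 9.06, 8.37 and 8.36 with celastrol. Every celastrol array lay above every DMSO array, and celastrol replicate 1 was the highest. The change was 0.97 (SE 0.18, adjusted p = 0.167, limma), and 0.73 without celastrol replicate 1. Il6ra, the binding subunit of the interleukin-6 receptor, had a change of 0.20 (SE 0.06), with 8.81, 8.82 and 8.69 above all DMSO arrays (8.58, 8.49, 8.62 and 8.59). Osm, the oncostatin M ligand itself, was dim, with a change of 0.22, and the kinase Tyk2, also dim, had a change of 0.17. The shared signal transducer Il6st (0.06) and Stat3 (0.00), the transcription factor, overlapped with DMSO, as did the feedback inhibitor Socs3 (0.08 and 0.01 in its 2 probe sets, both dim) and the leptin receptor Lepr (-0.04). Of the 32 probe sets of the interleukin-6 receptor and JAK-STAT3 list, 4 were higher and 0 lower at an unadjusted p under 0.05, 20 had a higher mean, and the median change was 0.016, against -0.000285 over all probe sets.

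Known STAT3 targets were mostly above DMSO. Of 26 probe sets, 21 had a higher mean, 6 were higher and 0 lower at an unadjusted p under 0.05, and the median change was 0.086. For 4 all celastrol arrays lay above DMSO, and for 1, the metallothionein Mt2, all lay below. Bcl3 (probe set 10560685), an IkB-like co-regulator of NF-kB that STAT3 also induces, read 8.15, 7.82, 7.86 and 7.97 with DMSO and 8.49, 8.62 and 8.30 with celastrol. The groups did not overlap, with a change of 0.52 (SE 0.10, adjusted p = 0.209, limma). Sbno2, a co-regulator downstream of STAT3 in the anti-inflammatory response of macrophages and astrocytes, read 8.38, 8.38, 8.48 and 8.32 against 8.65, 8.59 and 8.61. All 3 celastrol arrays were above DMSO by a small and even margin, for a change of 0.22 (SE 0.04, adjusted p = 0.209, limma). Pim3, a survival kinase, had a change of 0.18, and Serpina3n, a protease inhibitor of reactive astrocytes, 0.09. Without the 2 least typical arrays 18 of the 26 had a higher mean and the median was 0.066. Without celastrol replicate 2 alone these were 15 and 0.040.

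Lcn2 (probe set 10481627), the iron-siderophore-binding acute-phase protein lipocalin 2, had the largest change of all probe sets, and its celastrol arrays lay far apart. It read 6.997, 6.61, 7.03 and 7.01 with DMSO and 10.19, 8.08 and 7.86 with celastrol. No celastrol array overlapped DMSO, but replicate 1 stood farther above its 2 partners than they stood above DMSO. The change was 1.80 (SE 0.62, adjusted p = 0.861, limma), and 1.06 without celastrol replicate 1. Other members of the acute-phase and interleukin-1 list were mostly dim: 12 of 20 probe sets lay below the array median in all 7 arrays. Beside Lcn2, Steap4, an inflammation-induced metalloreductase, was the other of 2 members higher at an unadjusted p under 0.05 (0.25, and 0.11 without celastrol replicate 2), and 0 were lower. In all 17 of 20 had a higher mean (median change 0.069), and 16 of 20 (0.075) without the 2 least typical arrays. That check keeps celastrol replicate 1, and the Lcn2 change was 2.14 in it. Saa3 (0.17), C4b (0.01) and the cytokine Il1b (0.05) overlapped between the groups.

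**Figure D2:**
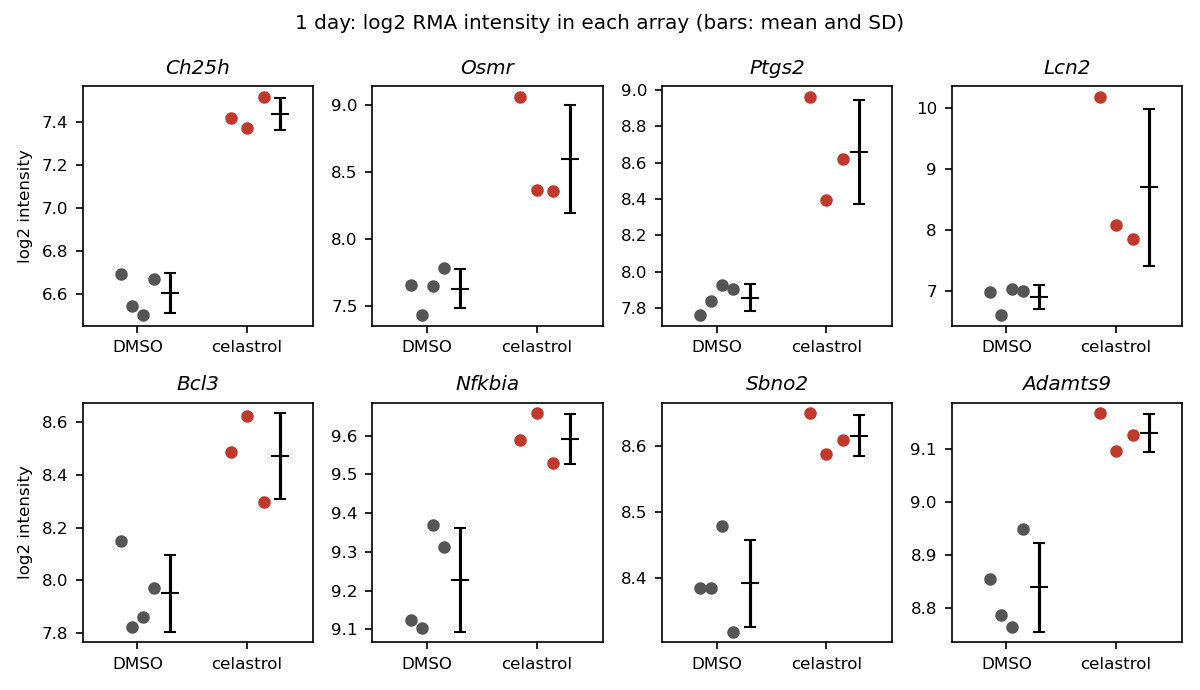
Each panel gives the log2 intensity (y axis) of 1 gene in each 1-day array (points; 4 DMSO in grey, 3 celastrol in red), with bars for mean and SD, and y axes that differ between panels and do not start at 0. In all 8 panels the celastrol points lie above the DMSO points, and for Osmr, Ptgs2 and Lcn2 celastrol replicate 1 lies highest.

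NF-kB targets formed a small set with clear separation beside a large set without. Ptgs2 (probe set 10350516), the inducible cyclooxygenase that makes the prostaglandins of fever, read 7.76, 7.84, 7.93 and 7.91 with DMSO and 8.96, 8.39 and 8.62 with celastrol. The lowest celastrol array was well above the highest DMSO array, and the change was 0.80 (SE 0.17, adjusted p = 0.363, limma). Nfkbia, the inhibitor IkB-alpha that NF-kB and glucocorticoids both induce, read 9.12, 9.10, 9.37 and 9.31 against 9.59, 9.66 and 9.53. Its groups did not overlap either, for a change of 0.36 (SE 0.09, adjusted p = 0.584, limma). Ier3, an immediate early survival gene, read 8.33, 8.43, 8.40 and 8.47 against 8.68, 8.61 and 8.78, a change of 0.29 (SE 0.07, adjusted p = 0.535, limma) with no overlap. With Bcl3 and the adhesion molecule Icam1 (0.23, dim, overlapping), these made 5 of 26 NF-kB probe sets higher and 0 lower at an unadjusted p under 0.05. The other classic targets Tnfaip3 (0.00), Cxcl1 (0.07), Cxcl10 (-0.05), Ccl2 (-0.02) and Tnf (0.01) were dim and overlapped, and the list's median was 0.018. That median turned to -0.026 (12 of 26 higher) without celastrol replicate 2 and was 0.080 (22 of 26) without DMSO replicate 1. In the prostaglandin list, Ptgs2 was the only 1 of 22 probe sets at an unadjusted p under 0.05, and the median was -0.016. The synthase Ptges (-0.07) and the prostaglandin-degrading enzyme Hpgd (-0.15) overlapped between the groups. Zfp36, which encodes tristetraprolin, a protein that destabilizes cytokine mRNA, was named after its values were seen: it had a change of 0.32 (SE 0.08, adjusted p = 0.533, limma) with no overlap, on a dim probe set.

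Glucocorticoid-induced genes had the highest median of the response lists, 0.16, with 22 of 27 probe sets higher in mean. At an unadjusted p under 0.05, 9 were higher and 0 lower, and for 8 all celastrol arrays lay above DMSO. For 1, the metallothionein Mt2 (-0.07), all lay below. The list shares Lcn2, Pim3, Cebpd, Cebpb, Mt1 and Mt2 with the STAT3 list, Nfkbia with the NF-kB list and Lcn2 with the acute-phase list. Sgk1, a kinase that regulates sodium channels, read 9.69, 9.16, 9.98 and 10.15 with DMSO and 10.25, 10.36 and 10.24 with celastrol. The celastrol arrays were tight and just above the highest DMSO array, while DMSO replicate 2 was low, and the change was 0.54 (SE 0.22, adjusted p = 0.861, limma), and 0.34 without that array. Arrdc2, an arrestin-domain gene of the same response, read 8.23, 7.90, 8.29 and 8.22 against 8.55, 8.56 and 8.46, a change of 0.37 with no overlap on a dim probe set. Ddit4, an inhibitor of mTORC1, had a change of 0.26 with no overlap, and Klf9, a glucocorticoid-induced transcription factor, 0.18 with overlap. The widely used markers Fkbp5 (0.20), Tsc22d3 (0.16) and Per1 (0.11) overlapped, and the receptor Nr3c1 had a change of 0.01. The list mean per array was -0.01, -0.12, 0.08 and 0.04 with DMSO and 0.31, 0.19 and 0.14 with celastrol. Without the 2 least typical arrays the count stayed at 22 of 27 and the median was 0.15, and leaving out celastrol replicate 1 gave 23 of 27 and 0.11. Crh, the hypothalamic peptide that drives the adrenal axis, read 7.13, 7.09, 7.16 and 7.16 with DMSO and 6.87, 6.69 and 7.01 with celastrol. All 3 celastrol arrays lay below DMSO, for a change of -0.28 (SE 0.08, adjusted p = 0.683, limma), on a probe set that was dim in every array.

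**Figure D3:**
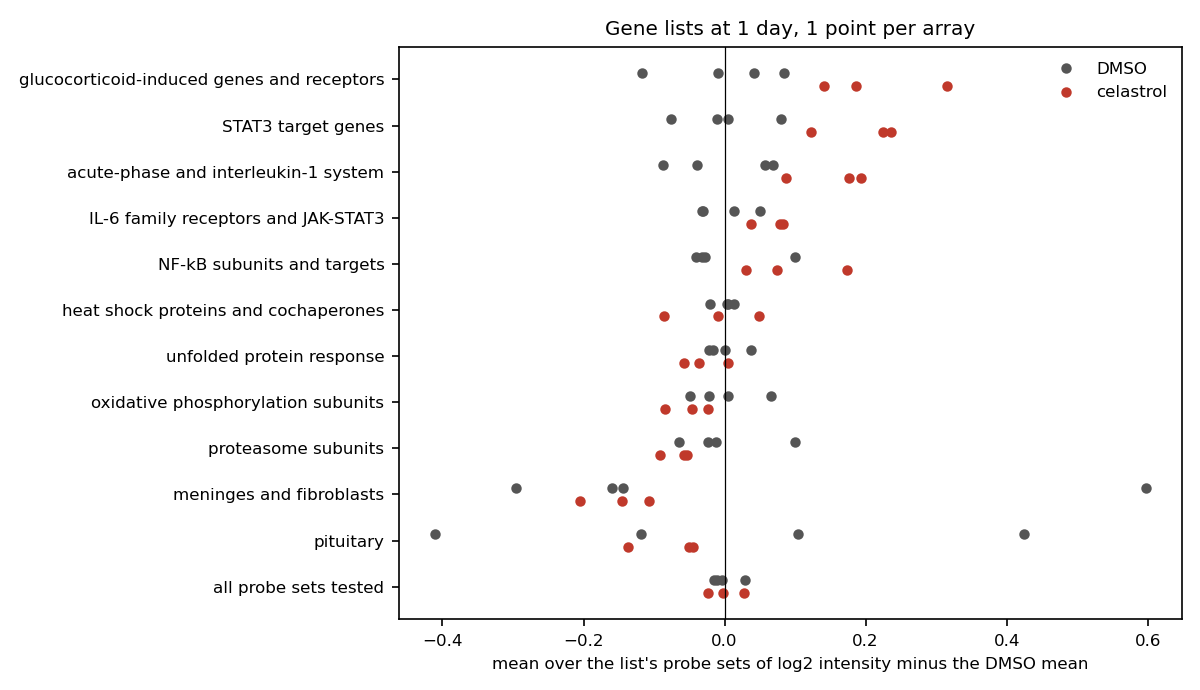
Each point is the mean over a list's probe sets of the log2 intensity minus the DMSO mean (x axis) in 1 array, 4 DMSO (grey) and 3 celastrol (red), by list (y axis). The celastrol arrays lie right of all DMSO arrays for the glucocorticoid, STAT3 and acute-phase lists, and 1 DMSO array lies far right for the meninges and pituitary lists. Lcn2 belongs to each of the glucocorticoid, STAT3 and acute-phase lists, and their means were not computed without it. The figure therefore does not show whether the other members of these lists separate the groups. In the acute-phase list the lowest celastrol array was at 0.087 and the highest DMSO array at 0.069.

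Promoter windows of these genes were searched for 4 elements on both strands: the STAT element (TTCNNNGAA), a kappaB-type element (GGG, any 2 bases, TTTCC), a glucocorticoid-type element (AGAACA, any 3 bases, TGT) and the heat shock element (GAA, any 2 bases, TTC, any 2 bases, GAA). Among 32851 RefSeq windows of GRCm38.p6, from 250 bases before to 50 after the start site, 8.30% held the STAT, 1.63% the kappaB-type, 0.414% the glucocorticoid-type and 0.603% the heat shock element. Osmr, Ptgs2, Nfkbia, Sbno2, Adamts9 and Lcn2 were taken for their large 1-day changes in earlier results of these data. Ch25h, Bcl3, Zfp36 and Ier3 were added after their values were seen, which made 10 genes with 12 windows. All were thus chosen from these same data. Matches were found in 4 windows of 3 genes. The Nfkbia window on chromosome 12 (chr12:55492598-55492897, minus strand) held the kappaB-type element on its reverse strand, 29 to 20 bases before the start. Of the 3 Sbno2 windows on chromosome 10, the first (chr10:80102653-80102952, minus strand) and the second (chr10:80101138-80101437, minus strand) held a STAT element 26 to 18 and 24 to 16 bases before the start. Zfp36 held a STAT element 17 to 9 bases before the start. The Ch25h window (chr19:34475099-34475398, minus strand) held none of the 4, which says only that these letters are not in it. The window of the one gene that passed and those of Nfkbia and Sbno2 are shown 5′ to 3′ with matches in capitals.
Ch25h: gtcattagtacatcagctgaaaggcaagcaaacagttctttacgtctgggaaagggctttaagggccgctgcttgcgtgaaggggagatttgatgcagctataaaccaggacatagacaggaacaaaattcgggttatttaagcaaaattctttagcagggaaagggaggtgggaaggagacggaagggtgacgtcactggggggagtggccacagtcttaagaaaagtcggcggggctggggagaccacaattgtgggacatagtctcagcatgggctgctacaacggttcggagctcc
Nfkbia: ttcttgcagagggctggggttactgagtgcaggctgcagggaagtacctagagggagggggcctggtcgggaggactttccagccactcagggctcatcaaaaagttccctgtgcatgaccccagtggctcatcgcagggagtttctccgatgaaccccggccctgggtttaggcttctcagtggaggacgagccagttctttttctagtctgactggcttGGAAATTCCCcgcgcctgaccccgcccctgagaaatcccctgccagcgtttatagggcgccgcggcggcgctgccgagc
Sbno2 first window: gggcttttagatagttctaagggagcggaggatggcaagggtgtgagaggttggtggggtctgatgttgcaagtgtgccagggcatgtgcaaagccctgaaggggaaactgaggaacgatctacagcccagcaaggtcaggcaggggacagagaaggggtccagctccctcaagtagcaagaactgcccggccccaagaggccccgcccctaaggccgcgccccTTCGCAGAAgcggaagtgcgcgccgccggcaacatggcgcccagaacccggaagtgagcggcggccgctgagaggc
Sbno2 second window: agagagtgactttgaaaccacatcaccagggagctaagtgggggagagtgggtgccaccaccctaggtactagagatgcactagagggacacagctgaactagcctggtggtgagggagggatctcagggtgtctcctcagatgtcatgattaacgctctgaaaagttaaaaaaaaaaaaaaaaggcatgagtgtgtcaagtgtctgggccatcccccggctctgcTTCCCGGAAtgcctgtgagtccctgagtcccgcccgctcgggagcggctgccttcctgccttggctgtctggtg
These windows come from reference sequence and carry no binding data from these mice.

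Matrix proteases and ceramidases split by gene. Adamts9, a secreted protease that cleaves proteoglycans, had 6 probe sets, all with a higher mean, from 0.14 to 0.29. Its probe set 10546430 read 8.85, 8.79, 8.76 and 8.95 with DMSO and 9.17, 9.10 and 9.13 with celastrol, a change of 0.29 (SE 0.05, adjusted p = 0.167, limma). The related Adamts5, a dim probe set, went the other way, with 7.52, 7.39, 7.38 and 7.44 against 7.04, 7.34 and 7.11. That Adamts9 probe set and Adamts5 separated the groups, in opposite directions, and the Adamts5 change was -0.27 (SE 0.07, adjusted p = 0.533, limma). In the whole list only 3 probe sets lay above DMSO without overlap, 1 of them of Acer2, so most Adamts9 probe sets overlapped. The alkaline ceramidase Acer2 had a change of 0.34 without overlap on 1 probe set and 0.05 with overlap on the other, which was dim, so its probe sets disagreed. Of the 29 probe sets of this list, 6 were higher and 1 lower at an unadjusted p under 0.05, and 4 of the 6 belonged to Adamts9.

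Other genes above DMSO came from no list. Akr1c18, an aldo-keto reductase that breaks down progesterone, read 5.39, 5.38, 5.25 and 5.45 with DMSO and 5.82, 5.91 and 5.61 with celastrol. The groups did not overlap, but its level lay at the 4.4 percentile, near the floor of the array, and the change was 0.41 (SE 0.07, adjusted p = 0.157, limma). Syt6, a synaptotagmin of membrane fusion, had a change of 0.19, Banp, a DNA-binding protein, 0.27, and Crip3, a LIM-domain protein, 0.24 on a dim probe set. Each of these 3 had all celastrol arrays above DMSO and an adjusted p from 0.368 to 0.519 (limma).

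The genes that the naming rule gave below DMSO were mostly dim, unlike the lower probe sets as a whole, of which 421 of 650 at an unadjusted p under 0.05 lay among the brighter 10114. St6galnac1, a sialyltransferase, read 7.74, 7.48, 7.66 and 7.61 with DMSO and 7.23, 7.24 and 7.15 with celastrol. The celastrol arrays were all below the lowest DMSO array, for a change of -0.42 (SE 0.08, adjusted p = 0.209, limma). Slc40a1, the iron exporter ferroportin, read 8.11, 8.18, 7.78 and 7.95 against 7.67, 7.63 and 7.61, a change of -0.37 (SE 0.09, adjusted p = 0.519, limma). Mettl18, a histidine methyltransferase, had a change of -0.35, Syce2, a synaptonemal complex protein, -0.29, Tgif1, a homeodomain repressor of TGF-beta signalling, -0.27, and Enpp3, an ectonucleotidase, -0.25. Trim59, a ubiquitin ligase (-0.40), and Ccl28, a mucosal chemokine (-0.38), had larger changes with wider spread, and Thap6 and Dipk2b had changes of -0.30 each. All of these separated the groups and all were below the array median in all 7 arrays. Among brighter genes, the RNA helicase Ddx47 (-0.19), the V-ATPase assembly factor Vma21 (-0.19, the same values in both of its probe sets, counted as 1) and Mgat2, a glycosyltransferase of the Golgi (-0.18), also lay below DMSO in every celastrol array. None passed over all probe sets, with adjusted p from 0.561 to 0.683 for these 3 (limma).

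Energy and protein turnover genes leaned lower together by small amounts. Of 95 oxidative phosphorylation probe sets, 85 had a lower mean (median change -0.054), 3 were lower and 0 higher at an unadjusted p under 0.05, and for 7 all celastrol arrays lay below DMSO. For proteasome subunits these counts were 32 of 40 (median -0.073), 4 and 0, and 4. Mitochondrial ribosomal proteins had 67 of 85 lower (median -0.062), with 13 lower and 0 higher at that p, and cytosolic ribosomal proteins 171 of 206 (median -0.044), with 10 lower and 1 higher. The probe sets of these lists cover 72, 34, 77 and 59 genes, in the order given. Many cytosolic ribosomal probe sets thus measure the same gene. Ndufa4, a respiratory chain subunit, read 10.53, 10.33, 10.39 and 10.41 with DMSO and 10.26, 10.32 and 10.29 with celastrol, a change of -0.13. Psma7, a core proteasome subunit, had a change of -0.18, also without overlap. The 2 least typical arrays bear on these lists. DMSO replicate 1 had the highest list mean of the 7 arrays for oxidative phosphorylation (0.07), proteasome (0.10) and mitochondrial ribosome (0.07), and celastrol replicate 2 the lowest (-0.09, -0.09 and -0.11). Without these 2 arrays, 57 of 95, 27 of 40, 52 of 85 and 157 of 206 had a lower mean, with medians of -0.012, -0.018, -0.013 and -0.022.

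The direction also went with level. Among the 10114 dimmer probe sets 369 were higher and 229 lower at an unadjusted p under 0.05 (median change 0.021), and among the 10114 brighter ones 107 were higher and 421 lower (median -0.015). Over 10 equal bins of level the median change was 0.024, 0.036 and 0.038 in the 3 dimmest and between -0.020 and -0.0091 in the 5 brightest. Olfactory receptors, which the hypothalamus is not known to express broadly and of which 1012 of 1016 probe sets were dim, had 616 higher means (median 0.025), and 503 (median -0.0022) without the 2 least typical arrays. Over all probe sets, leaving those arrays out gave 259 higher and 323 lower at an unadjusted p under 0.05. The lists of bright genes that leaned lower and the dim families that leaned higher thus sit on an overall tilt of the same sign, and its part in their medians was not tested.

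**Figure D4:**
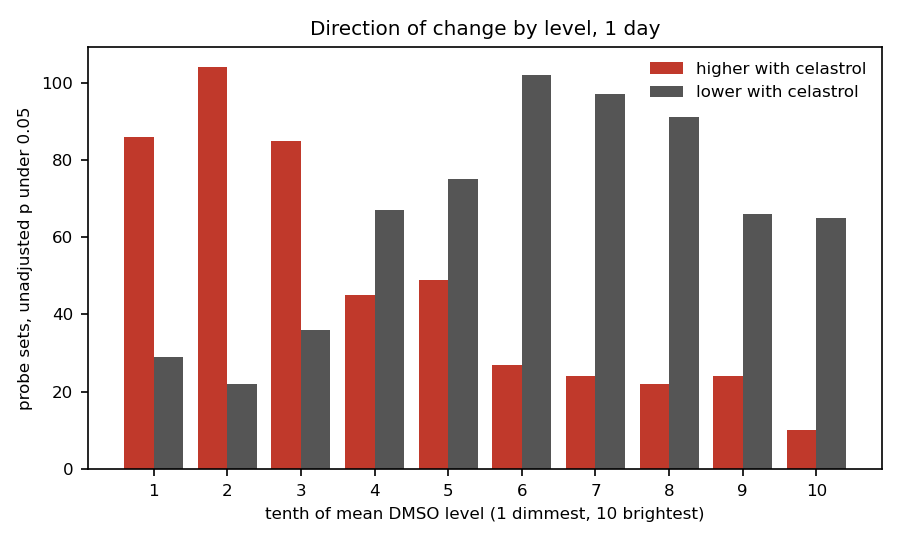
Bars count the probe sets at an unadjusted p under 0.05 (y axis), higher (red) or lower (grey) with celastrol at 1 day. The 10 bins (x axis) are of the mean level over all 22 arrays, although the axis label names the DMSO level. Higher values dominate in the 3 dimmest bins (86, 104 and 85 against 29, 22 and 36) and lower values from the fourth on.

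Stress responses that celastrol is known for in cells showed little. Heat shock proteins and cochaperones had 0 of 33 probe sets at an unadjusted p under 0.05 in either direction, 12 with a higher mean (median -0.023), with Hspa1a at 0.08 and Dnajb1 at 0.14. The NRF2 antioxidant list also had 0 of 30 (median -0.0089). The unfolded protein response had 2 of 30 lower and 0 higher, Manf, a secreted survival factor of the endoplasmic reticulum (-0.18), and Chac1, a glutathione-degrading enzyme (-0.13), and the chaperone Hspa5 had a change of 0.02 (SE 0.05).

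Feeding peptides did not stand apart from the background either: of 45 probe sets 1 was higher and 2 lower at an unadjusted p under 0.05, and the median was -0.011. The 3 were Ghsr, the ghrelin receptor (0.14, overlapping), Crh (above) and Penk, the enkephalin precursor (-0.09). Pomc, the precursor of the satiety peptide alpha-MSH, had a change of -0.13 (SE 0.14, 95% interval -0.43 to 0.16), and Npy, which drives feeding, -0.07 (SE 0.16, interval -0.40 to 0.26). These intervals still leave room for changes of moderate size in both. The circadian clock list had 0 of 20, and the fasting and fatty acid oxidation list 2 of 30 higher, Irs2, an insulin receptor substrate (0.14, no overlap), and Pdk4, which restrains pyruvate oxidation (0.22). Interferon-stimulated genes had 1 of 26 lower, the RNA sensor Ifih1 (-0.20, dim), and immediate early genes had Ier3 higher and Egr1, an activity-dependent transcription factor, lower (-0.26), 2 of 29 at that p. Without the 2 least typical arrays 1 of the 29 was higher and 6 were lower, against 259 and 323 of all 20228.

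Markers of other cell types differed in direction from list to list. Of 17 microglia and macrophage probe sets 10 had a higher mean (median 0.014). Cx3cr1, the fractalkine receptor of microglia, read 9.74, 9.71, 9.78 and 9.73 with DMSO and 9.56, 9.52 and 9.56 with celastrol, a change of -0.19 without overlap, while the macrophage scavenger receptor Cd163 had 0.21 on a dim probe set. Endothelial markers had 3 of 15 lower at an unadjusted p under 0.05, the receptor Tek (-0.17), the transporter Slco1a4 (-0.17) and the tight junction protein Cldn5 (-0.20), with a median of -0.022. Without the 2 least typical arrays 8 of the 15 had a higher mean, the median was 0.017 and 1 was lower at that p. Astrocyte markers had 13 of 16 higher in mean (median 0.034) with 0 at that p. Their list mean was -0.008, -0.013, 0.014 and 0.007 with DMSO and 0.039, 0.026 and 0.048 with celastrol, small values that did not overlap. Among neuron markers 11 of 14 were lower in mean (median -0.013) with 0 at that p. Blood cell markers had 3 of 11 higher, Cd79a (0.20), Ms4a1 (0.20) and S100a8 (0.16), but 10 of 11 were dim and the list mean was highest in celastrol replicate 2 (0.24), with the other 6 arrays from -0.10 to 0.07. Meningeal markers had 10 of 12 lower (median -0.12), with DMSO replicate 3 at a list mean of 0.60 and the other 6 arrays from -0.30 to -0.11. The part of other cell types in the changes of Ch25h, Osmr, Ptgs2 and Lcn2 was not tested.

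The 1-day changes were set beside those at 6 h and 4 days, which come from other mice. Osmr (0.64, 0.97 and 0.71 at 6 h, 1 day and 4 days), Ptgs2 (0.52, 0.80 and 0.96) and Lcn2 (1.29, 1.80 and 1.96) lay on the same side at all times. Nfkbia (-0.15, 0.36 and 0.40), Sgk1 (-0.38, 0.54 and 0.84) and Arrdc2 (-0.11, 0.37 and 0.39) were below 0 at 6 h and above it later. Bcl3 (0.07, 0.52 and -0.06), Akr1c18 (-0.10, 0.41 and -0.03), St6galnac1 (0.10, -0.42 and 0.07) and Crh (0.02, -0.28 and 0.03) were away from 0 at 1 day and near it before and after. Bcl3, Akr1c18, St6galnac1 and Crh were named by their 1-day values, and that choice alone favours larger changes at 1 day. The differences between times below use the same 1-day values. The difference between times was tested directly for all probe sets. Between 1 day and 6 h, 0 probe sets passed (lowest adjusted p = 0.752, limma) and 1331 (6.58%) had an unadjusted p under 0.05. Between 1 day and 4 days, 0 passed (lowest adjusted p = 0.529, limma) and 1137 (5.62%) had one. So these patterns were not shown to differ over time. The smallest unadjusted p for 1 day above 6 h included Akr1c18 (a difference of 0.51, SE 0.10), Nfkbia (0.52, SE 0.13) and the keratin-associated Krtap13 (0.30), and below it St6galnac1, Syce2 and the transcription cofactor Dach2 (-0.52, -0.35 and -0.38). Against 4 days they included Akr1c18 (0.45), Rgs21, a G-protein regulator (0.48, very dim), and the DNA helicase Zranb3 (0.30) above, and Tek (-0.41), Zfp35 (-0.36) and Wfdc17 (-0.67) below. Wfdc17, a secreted protein of activated macrophages, had -0.02 at 1 day and 0.65 at 4 days.

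**Figure D5:**
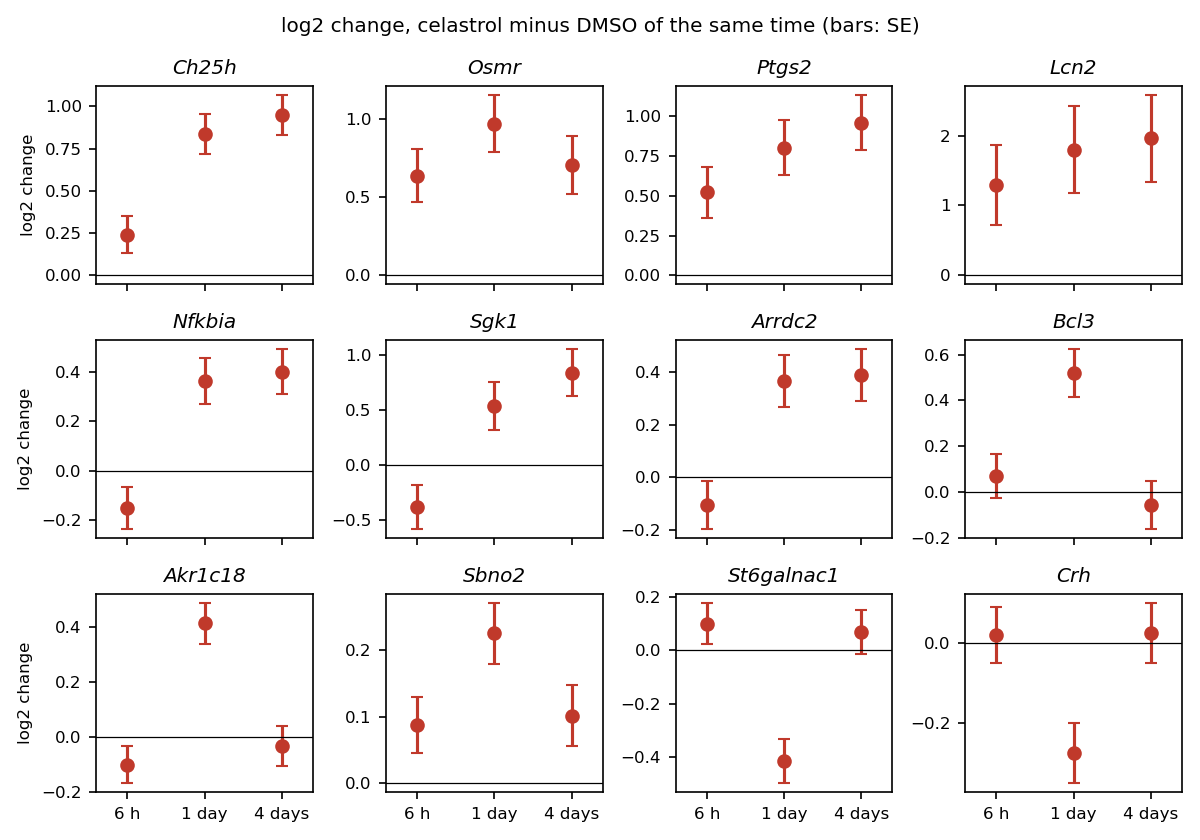
Each panel gives the log2 change of 1 gene, celastrol minus DMSO of the same time (y axis, scales differ), at 6 h, 1 day and 4 days (x axis), with SE bars from the limma fit. Osmr, Ptgs2 and Lcn2 are above 0 at all times, Nfkbia, Sgk1 and Arrdc2 above it at 1 and 4 days and below it at 6 h, and Bcl3, Akr1c18, St6galnac1 and Crh are away from 0 mainly at 1 day. Bcl3, Akr1c18, St6galnac1 and Crh were named by their 1-day values, which favours this pattern.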

How the data were processed

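RNA of 22 hypothalami was measured on Affymetrix whole-transcript arrays. The authors deposited log2 values made with RMA, per the submitters' processing notes (version and annotation: not given in the sources used); RMA corrects background, quantile-normalizes and summarizes probes. Of 23492 probe sets, 20228 had 1 symbol in the platform annotation, 1399 several and 1865 none; 62 listed genes had no matching probe set and are not analysed here. Array medians were 8.58 to 8.66, and 0 columns of other series were present. Some probe sets (105) hold the same values as another. One model with 6 group means over the 22 arrays was fitted with limma 3.58.1 in R 4.3.3 (16 residual and 4.66 prior degrees of freedom), with Benjamini-Hochberg adjustment over 20228, two-sided, and intervals at 95%. Exact permutations used 35 arrangements of the 7 arrays. "Dim" means below the array median in all 7. The members, gene lists and alternatives were chosen with earlier results of these data known. Named were the probe sets called, the 10 each way with the smallest p and 5 with the largest change among those without overlap, up to 4 per list at p under 0.05 (otherwise 1), 3 each way per difference between times, and 13 genes always; further list members, and Gh and Zfp36, were picked with their values in view. The steps were tested on simulated data. Figures used matplotlib 3.10.9 in Python 3.11.15. The number of arrays limits precision.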

Additional observations from a re-analysis of the deposited data

Results flagged for a closer look

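Within the 4 DMSO arrays of 1 day, 97 named probe sets and 43 list means were examined for an array far from the other 3 (Dixon's ratio, the gap to the nearest array over the whole range, above the 95% critical value for 4 arrays). Chance flags about 1 in 20 such groups. Replicate 3 was the far array for Fmod (0.937), Col23a1 (0.896) and the mean of the meninges and fibroblast list (0.830), high in Fmod and the list and low in Col23a1. Replicate 2 was low for Lcn2 (0.911), Arrdc2 (0.837) and Mettl18 (0.830). Replicate 1 was high for Psmd10 (0.971), Wfdc17 (0.840) and the mean of the NF-kB list (0.908). Without replicate 2 the Lcn2 change was 1.70, against 1.80 with it.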

How the results depend on the processing

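The count called at 1 day was 1 in the main analysis, 1 higher and 0 lower. It was 0 above the array median in at least 3 or at least 11 arrays, filters that remove Ch25h, 3 after quantile normalization again (2 higher, 1 lower: Ch25h, Akr1c18 and Adamts5), 0 without the 2 least typical arrays (chosen after seeing the data) and from 0 to 2 leaving out 1 array (0 to 2 higher, 0 lower). The second was Osmr without celastrol 6 h replicate 1 (adjusted p = 0.0194, limma) and Akr1c18 without celastrol 4 days replicate 3 (0.0423); without celastrol 1 day replicate 3, Akr1c18 (0.0481) was called in place of Ch25h. Array weights gave 1570 (801 higher, 769 lower), with 3 and 22 for the differences from 6 h and 4 days, but the estimate did not converge and gave celastrol replicate 3 a weight of 23.5. A gene-by-gene estimate, chosen after seeing that, gave it 5.30 and called 19 (12 higher, 7 lower), among them Ch25h, Osmr, Ptgs2, Bcl3, Sbno2, Ier3 and Adamts9. Those weighted calls rest largely on 1 array. The labels do not say whether the replicate numbers pair the mice. Same-numbered arrays of 1 day had deviations correlated at -0.44, -0.27 and 0.02, and those of the other times from -0.14 to 0.39. With the replicate block 0 probe sets were called, with Ch25h at 0.86 (adjusted p = 0.145, limma). Ch25h was called in 27 of 34 alternatives, with changes from 0.80 to 0.93 and adjusted p from 2.00e-06 to 0.145. Changes near 0 turned sign in 20 cases (ranges are over leaving out 1 array): Socs3 (probe set 10383010) to -0.0079 with quantile normalization, -0.041 with the block and -0.16 without the 2 arrays (range -0.18 to 0.20), and its other probe set (-0.016 to 0.18). Npy turned to 0.058 without the 2 arrays (-0.18 to 0.083) and Lepr to 0.035 (-0.18 to 0.069). Wfdc17 turned to 0.14 and 0.12 with the 2 weightings and 0.096 without the 2 arrays (-0.079 to 0.048), Acer2 (probe set 10505788) to -0.011 with array weights (-0.0013 to 0.088), and Hspa5 ranged from -0.018 to 0.057. Dim probe sets may lie at background.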

Other observations

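Further genes outside the lists and the naming rule, seen after their values, also had wide changes. Tmem252, a membrane protein, was dim and read 6.54, 6.22, 6.37 and 6.27 with DMSO and 7.04, 6.82 and 6.69 with celastrol, a change of 0.50 (adjusted p = 0.629, limma), beside -0.01 at 6 h and 0.64 at 4 days. Ucn3, the stress peptide urocortin 3 of the corticotropin-releasing family, read 8.23, 8.14, 7.98 and 8.25 with DMSO and 7.23, 8.28 and 7.54 with celastrol. Celastrol replicate 2 lay above all DMSO arrays and the other 2 below them, so the groups overlapped, for a change of -0.47 (adjusted p = 0.861, limma). Neither passed the test over all probe sets.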
